A study of Mus musculus with 4 samples.

Results

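The anti-apoptotic BCL-2 family was examined as 4 genes, Bcl2, Mcl1, Bcl2l1 and Bcl2l2, in an RNA sequencing study of BET inhibitor resistance. The genes were chosen by name, with earlier results of these data known. All 4 had rows among the 16591 genes of the deposited count table. The study held 4 libraries of mouse Eμ-Myc lymphoma cells, 2 from the JQ1-sensitive line JQ1S and 2 from the JQ1-resistant line JQ1R. JQ1 is a small molecule that displaces the BET bromodomain proteins from acetylated histones. Both lines were of C57BL/6 strain and carried the Eμ-Myc transgene, in which the immunoglobulin heavy-chain enhancer drives Myc in B-lineage cells. Cells of both lines were of early passage, and no drug added before harvest is named in the labels. With 1 line of each kind, resistance and any other difference between the lines cannot be told apart. Nothing in the labels says that the 2 libraries of a line came from separate cultures, so p-values measure only the spread between these libraries, which may be technical.

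Proteins of this family sit mainly on the outer mitochondrial membrane and hold cells alive by binding their own pro-apoptotic relatives. A groove on their surface captures the BH3 segment of the BH3-only proteins, and they also restrain BAX and BAK, which otherwise form pores through which cytochrome c escapes. In B-lineage cells BCL-2, MCL-1 and BCL-XL (the product of Bcl2l1) support survival at different stages, and lymphomas driven by Myc commonly depend on at least one of them. BCL-W, the product of Bcl2l2, is best known for its role in the testis.

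Libraries held between 10346007 and 13048103 counts. In edgeR 445 of 11945 tested genes (3.73%) differed between the lines at an adjusted p below 0.05, 2.20% of tested genes being higher and 1.52% lower in the resistant line. An unadjusted p below 0.05 was met by 16.9% of tested genes. Leaving out 1 sensitive library raised the share of all tested genes called, to 11.7% without sensitive replicate 1 and 10.1% without sensitive replicate 2, so counts at these settings are given beside those shares. The 8 B-cell markers were all expressed, with a summed level of 2153 to 2203 in the sensitive pair and 2262 to 2339 in the resistant pair, in CPM (counts per 1000000 counts of the library, after TMM scaling). One of them, the inhibitory receptor Cd22, was called (log2 change 0.28, adjusted p = 0.0129 in edgeR), and this call was lost without either resistant library (adjusted p of 0.202 and 0.102). Of 6 T-cell markers only Cd3d was measured, at 0 to 3 counts, and of 5 erythroid markers only Klf1, at 4 counts in each library. The 4 myeloid markers measured of the 6 listed summed to 3.24 to 3.60 CPM in the sensitive pair against 4.55 to 4.58 CPM in the resistant pair. Of 5 fibroblast and endothelial markers 2 were measured, and they summed to 88.6 to 100.3 CPM in the sensitive pair against 89.0 to 90.3 CPM in the resistant pair. Nearly all of that came from Pecam1, an adhesion molecule that leukocytes also carry, at 87.2 and 99.1 CPM in the sensitive pair against 87.4 and 88.9 CPM in the resistant pair. The part of other cells in the differences below was not tested.

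Bcl2 was the member that rose. It encodes the founding inhibitor of apoptosis of the family and lies on the minus strand of chromosome 1 at 106538178 to 106714274 (GRCm38). Its level was 18.0 and 18.3 CPM in the sensitive libraries, from 233 and 188 counts. In the resistant libraries it was 105.4 and 113.2 CPM, from 1151 and 1345 counts. Both resistant libraries stood far above both sensitive ones, and the gap between libraries of a line was 0.02 (sensitive) and 0.10 (resistant) on the log2 scale. The log2 change was 2.59 ± 0.08 (SE), a 6.04-fold rise with an adjusted p of 2.13e-12 in edgeR's quasi-likelihood test. This was the 12th highest log2 change and the 5th smallest adjusted p of the 11945 tested genes. Bulk RNA does not tell more RNA per cell from more cells that carry it. An antisense gene, D630008O14Rik, covers 6.09% of the exonic bases of Bcl2 and none of its coding bases. The sources used here do not give the strand setting of the counting, so reads from the antisense gene cannot be told apart there.

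Mcl1, which encodes a short-lived survival protein needed by most lymphocytes, did not pass the test. It lies on chromosome 3 at 95658788 to 95663176, on the plus strand. Its level was 265.0 and 252.0 CPM in the sensitive pair and 257.9 and 270.0 CPM in the resistant libraries. The values of the lines overlapped. The log2 change was 0.03 ± 0.06 (SE, adjusted p = 0.848 in edgeR), and its sign turned without sensitive replicate 2 (-0.0064) or resistant replicate 2 (-0.0036). Each library held 2593 to 3439 Mcl1 counts, which leaves little counting error, with an exact Poisson 95% interval of 256.3 to 274.1 CPM in sensitive replicate 1.

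Bcl2l1 did not pass either. It lies on the minus strand of chromosome 2 at 152780668 to 152831728, and its 9 annotated transcripts, which include the long survival-promoting and a short form, are counted together. Its level was 11.9 and 15.8 CPM in the sensitive pair and 10.7 and 11.4 CPM in the resistant libraries. Both resistant libraries were below both sensitive ones. Sensitive replicate 1 was close to the resistant pair, and sensitive replicate 2 stood apart. The gap between the sensitive libraries was 0.41 on the log2 scale, larger than the difference between lines of -0.30 ± 0.15 (SE, adjusted p = 0.313 in edgeR). Without sensitive replicate 1 the log2 change was -0.51 and was called (adjusted p = 0.0120 in edgeR), as were 11.7% of all tested genes, and without sensitive replicate 2 it was -0.10 (adjusted p = 0.770).

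Bcl2l2 fell, from a low level. It lies on the plus strand of chromosome 14 at 54883377 to 54888234. There were 24 and 17 counts in the sensitive pair, against 2 and 2 counts in the resistant libraries. On the CPM scale this was 1.85 and 1.65 against 0.183 and 0.168, so the lines did not overlap. The sensitive level was 10.0 times the resistant level by the summed counts of 41 and 4, with an exact 95% interval of 3.64 to 38.6 that covers counting error only. The fitted log2 change was -3.25 ± 0.53 (SE, adjusted p = 0.00136 in edgeR), a value that depends on the prior count at 2 counts per library. DESeq2 called it (adjusted p = 0.0399) on the genes tested here and not on the unfiltered table (adjusted p = 0.0589). Exons of the readthrough gene Gm20521, which joins Bcl2l2 to its neighbour Pabpn1, cover 13.3% of the exonic bases of Bcl2l2 and 63.4% of its coding bases on the same strand. HTSeq in its default mode leaves out reads that overlap more than 1 gene. Neither its mode nor the annotation used is given here, so the Bcl2l2 counts may miss part of its RNA in all 4 libraries. Pabpn1 itself, which encodes a poly(A)-binding protein, stood at 92.5 and 96.8 CPM in the sensitive pair against 91.2 and 90.1 CPM in the resistant pair (log2 change -0.06, adjusted p = 0.683 in edgeR). Exons of Gm20521 also cover 21.4% of the exonic bases of Pabpn1, so its counts carry the same limit.

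**Figure D1:**
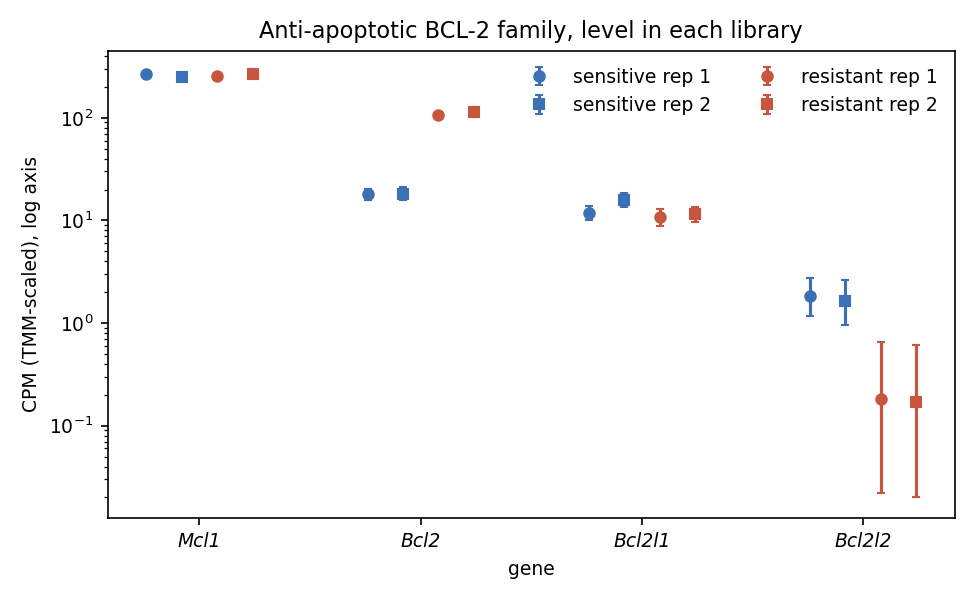
Level of each family member in each library, in TMM-scaled CPM on a log axis, with exact Poisson 95% intervals (counting error only). Bcl2 stands at 18.0 and 18.3 CPM in the sensitive pair against 105.4 and 113.2 CPM in the resistant pair, and the 4 Mcl1 values lie between 252.0 and 270.0 CPM.

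So 1 of the 4 members was higher and 1 lower, where 2.20% and 1.52% of all tested genes were. In 3 of the 4 both libraries of a line lay to the same side of the other line, as in 47.3% of all tested genes. The median log2 change of the 4 was -0.14, against 0.0033 over all tested genes. That median describes neither of the called members, which moved in opposite directions.

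To compare members with each other, CPM was divided by the length of the merged exons of each gene, which is 9.157 kb for Bcl2, 3.418 kb for Mcl1, 4.586 kb for Bcl2l1 and 4.462 kb for Bcl2l2. On this scale Mcl1 was the most abundant member in every library. It stood at 75.6 ± 2.70 CPM per kb (mean ± SD, n = 2) in sensitive and 77.2 ± 2.50 CPM per kb in resistant cells, above 93.4% and 93.6% of 11853 tested genes with an annotated length. In sensitive cells the order below Mcl1 was Bcl2l1 at 3.02 ± 0.61, Bcl2 at 1.98 ± 0.02 and Bcl2l2 at 0.392 ± 0.031 CPM per kb. Bcl2l1 was above Bcl2 in both sensitive libraries, at 2.59 against 1.96 and 3.45 against 2.00 CPM per kb. In resistant cells Bcl2 was second at 11.9 ± 0.61 CPM per kb, followed by Bcl2l1 at 2.42 ± 0.11 and Bcl2l2 at 0.0394 ± 0.0023. Bcl2 thus passed Bcl2l1 in the order, from above 23.4% of genes in sensitive to above 63.7% in resistant cells. Per kb, Bcl2 stood at 0.758 and 0.578 times the level of Bcl2l1 in the sensitive libraries and at 4.93 and 4.95 times in the resistant libraries. The order of Bcl2 and Bcl2l1 in sensitive cells rests on the length used, since by counts alone Bcl2 was the higher (18.0 against 11.9 CPM and 18.3 against 15.8 CPM).

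The make-up of the family differed between the lines. Per kb, Bcl2 made up 2.38% and 2.51% of the family total in the sensitive pair against 12.9% and 13.2% in the resistant libraries. Mcl1 made up 94.0% and 92.7% in sensitive and 84.5% and 84.1% in resistant libraries. The shares of both genes did not overlap between lines. Bcl2l1 held 3.14% and 4.34% in sensitive and 2.61% and 2.66% in resistant libraries, and Bcl2l2 held 0.502% and 0.465% in sensitive and 0.0459% and 0.0402% in resistant libraries. Mcl1 stood at 39.5 and 37.0 times the Bcl2 level per kb in the sensitive libraries, and at 6.56 and 6.39 times in the resistant libraries. With 2 libraries per line no exact permutation test of a share can pass the threshold, so the shares are given as a description.

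Shares of raw counts have a counting interval. Bcl2 took 233 of 3850 and 188 of 2961 family counts in the sensitive libraries, which is 6.05% (exact Clopper-Pearson 95% interval 5.32 to 6.85) and 6.35% (5.50 to 7.29). In the resistant libraries it took 28.2% (26.8 to 29.6) of 4088 and 28.7% (27.4 to 30.0) of 4691 counts. The intervals of the lines were far apart, and those of libraries of a line overlapped. The size of the share depends on the length used. With coding length in place of merged exons, Bcl2 made up 8.29% of the family total in sensitive and 35.4% in resistant cells, because much of its annotated length is untranslated, and it remained below Mcl1 (84.3% and 60.9%).

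**Figure D2:**
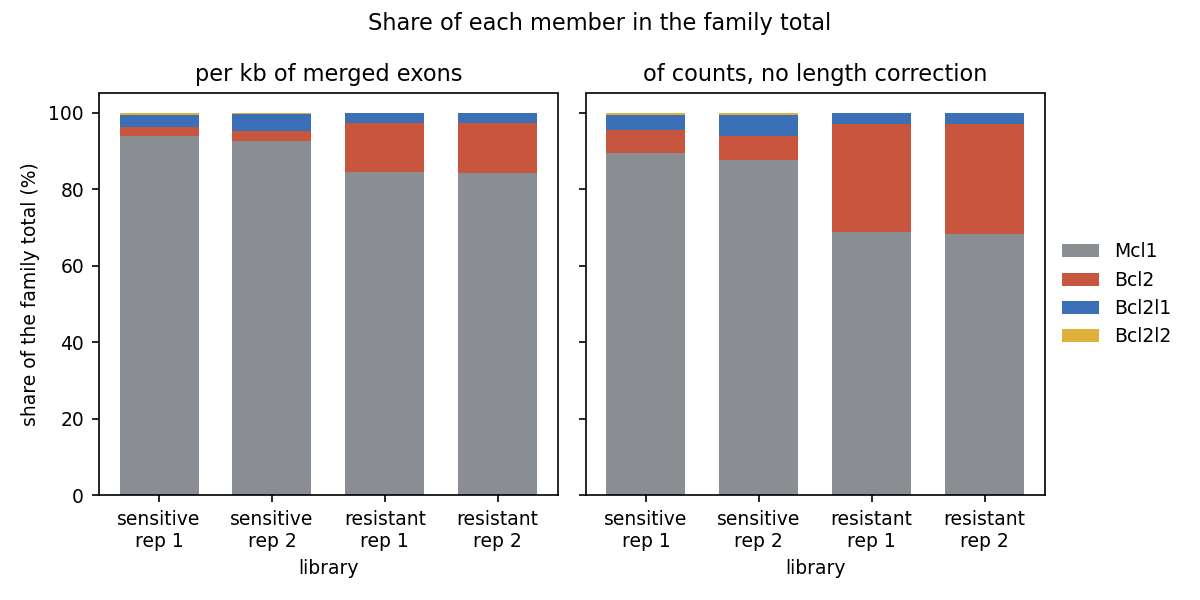
Share of each member in the family total (%) in the 4 libraries, per kb of merged exons (left) and of raw counts (right). The Bcl2 share is 2.38% and 2.51% in sensitive against 12.9% and 13.2% in resistant libraries per kb, and Mcl1 is the largest share in each bar.

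The family total differed far less between the lines than Bcl2 itself. Summed per kb, the 4 members stood at 82.5 and 79.5 CPM per kb in sensitive and 89.3 and 93.9 CPM per kb in resistant libraries. The resistant mean was 1.13 times the sensitive mean, or 1.41 times with coding length and 1.32 times by counts with no length correction. Both resistant sums were above both sensitive sums. No test was made of this sum.

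The sequence just before the start of Bcl2 is shown beside that of Mcl1, the member that rose and the member with the highest level. Sequences are from RefSeq on GRCm38.p6, which matched all 4 members with 6 start sites. Each is the 250 bases upstream of the start, 5′ to 3′ on the strand of the gene, at chr1:106714291-106714540 (minus strand) for Bcl2 and chr3:95658471-95658720 (plus strand) for Mcl1. Capitals mark matches on either strand to the GC box GGGCGG or to the half-site TGACG of the cyclic AMP response element, at which CREB binds.
Bcl2: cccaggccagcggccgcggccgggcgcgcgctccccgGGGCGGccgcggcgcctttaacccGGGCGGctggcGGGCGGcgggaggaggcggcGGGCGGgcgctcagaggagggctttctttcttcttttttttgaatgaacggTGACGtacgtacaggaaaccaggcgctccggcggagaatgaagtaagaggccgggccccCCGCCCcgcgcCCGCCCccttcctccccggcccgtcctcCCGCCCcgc
Mcl1: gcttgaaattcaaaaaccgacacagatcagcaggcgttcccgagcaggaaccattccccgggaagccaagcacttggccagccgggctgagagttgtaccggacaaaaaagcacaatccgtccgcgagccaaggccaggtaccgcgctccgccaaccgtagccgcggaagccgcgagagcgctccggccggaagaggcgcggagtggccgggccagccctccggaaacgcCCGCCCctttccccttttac
The Bcl2 window held 7 GC boxes and 1 half-site, with 74.8% G and C and 36 CpG dinucleotides. The Mcl1 window held 1 GC box and no half-site, with 64.4% G and C and 26 CpG dinucleotides. Over all 32851 RefSeq windows of this length the median was 52.4% G and C and 6 CpG dinucleotides. A GC box was found in 32.7% of those windows and a half-site in 17.8%. The E-box CACGTG, to which MYC binds, was found in 6.02% of windows and in none of the 6 of the family. The CCAAT and TATAAA motifs (33.8% and 12.4% of windows) were in none of the 6 either. Matches were counted on both strands and may overlap. These matches describe letters in a window and are not evidence that a factor binds there. Creb1, which encodes CREB, was measured at 116.5 ± 2.69 CPM (mean ± SD, n = 2) in the sensitive line and at 118.9 ± 3.93 CPM in the resistant line, with 0.03 as the log2 change (edgeR adjusted p = 0.863).

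The BH3-only proteins are the ligands of this family, and BAX and BAK are the effectors that it holds in check. Of 11 tested genes of these groups and of the BNIP and Beclin group, 2 were higher, 0 lower and 9 did not pass in edgeR. Of all tested genes 2.20% were higher and 1.52% lower. An unadjusted edgeR p below 0.05 was met by 4 of 6 BH3-only genes, 0 of 2 effectors and 2 of 3 genes of the BNIP and Beclin group. Of all tested genes 16.9% met it. The median log2 change of the 11 was 0.12, against 0.0033 over all tested genes. Bmf, a BH3-only gene whose product binds BCL-2 and MCL-1, rose from 9.48 and 8.84 CPM in sensitive to 16.6 and 14.5 CPM in resistant libraries. The log2 change of Bmf was 0.75 ± 0.13 (SE, adjusted p = 0.00269 in edgeR), a call that DESeq2 made on the tested genes but not on the unfiltered table (adjusted p = 0.0642). Bnip3, a mitophagy receptor with a BH3-like segment, was called higher, from 43.6 and 74.3 CPM to 87.4 and 98.0 CPM. The sensitive libraries were far apart in Bnip3. Leaving out sensitive replicate 1 gave a log2 change of 0.32, leaving out sensitive replicate 2 gave 1.09, and the gene was not called by DESeq2 (adjusted p = 0.829). Other genes cover 22.3% of its exonic bases.

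The other ligands did not pass. Bcl2l11, which encodes BIM, stood at 40.8 and 41.5 CPM in the sensitive pair against 48.1 and 47.6 CPM in the resistant pair (log2 change 0.22, adjusted p = 0.141 in edgeR). Pmaip1, which encodes the MCL-1 ligand NOXA, stood at 17.9 and 17.5 against 20.7 and 20.9 CPM (0.23, adjusted p = 0.268). For both genes the lines did not overlap, and libraries of a line were close. Bid was lower in both resistant libraries (86.9 and 88.3 against 79.6 and 76.5 CPM, log2 change -0.17, adjusted p = 0.193 in edgeR). Bbc3, which encodes PUMA, and Bad had adjusted p-values of 0.658 and 0.700, with overlapping lines. Bik was measured at 3 to 5 counts and not tested. The effectors Bax (82.9 and 84.1 against 85.6 and 82.8 CPM, log2 change 0.01) and Bak1 (98.6 and 115.5 against 100.3 and 97.8 CPM, -0.11) overlapped between lines. Other genes cover 12.2% of the exonic bases of Bax, 25.5% of Bak1, 17.7% of Bid and 20.5% of Bad. For Bak1 the log2 change ran from -0.22 (sensitive replicate 1 left out) to 0.0045 (sensitive replicate 2 left out). Bnip3l, a relative of Bnip3, missed the threshold with all libraries (log2 change 0.26, adjusted p = 0.0581 in edgeR) and was called with the replicate block (0.0139), with no filter on low counts (0.0400) and without sensitive replicate 2 (2.94e-08). Becn1, which encodes the autophagy protein Beclin 1, had a log2 change of 0.06 (adjusted p = 0.708 in edgeR), and other genes cover 43.9% of its exonic bases. Bcl2a1a, Bcl2a1b, Bcl2a1c, Bcl2a1d, Bcl2l10, Hrk and Bok were not analysed here.

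**Figure D3:**
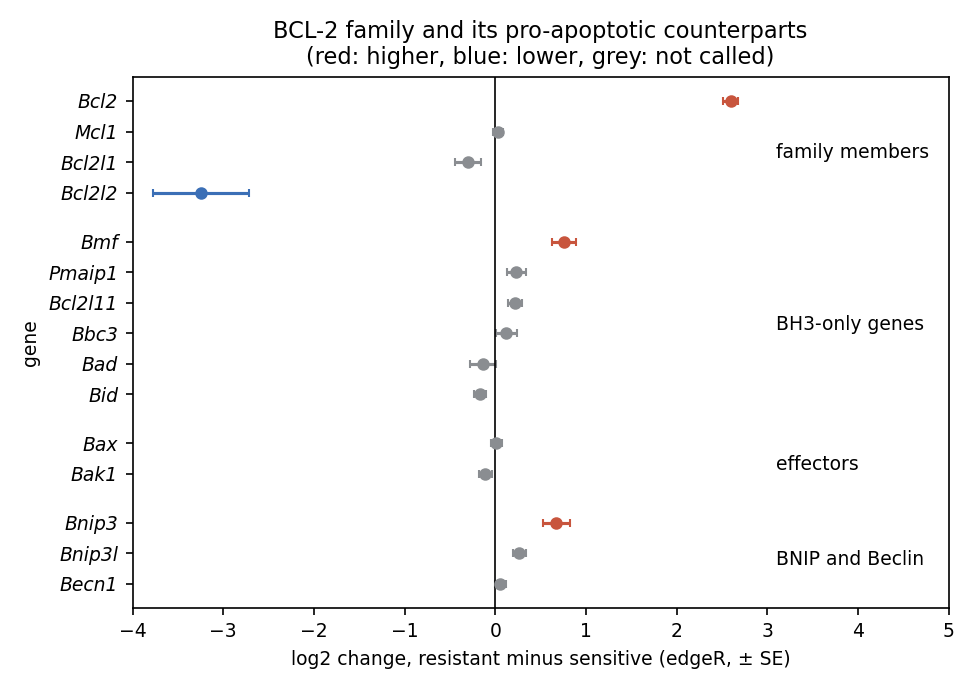
Log2 change (resistant minus sensitive, edgeR, bars ± SE) of the family members and their tested pro-apoptotic counterparts. Bcl2 at 2.59 and Bcl2l2 at -3.25 lie far from the other genes, which range from -0.30 to 0.75.

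Lists of genes that act on the family were compared in the same fit. Of 14 tested transcription factors described as acting on these genes 1 was higher and 0 lower, with a median log2 change of -0.05. Of all tested genes 2.20% were higher and 1.52% lower. An unadjusted edgeR p below 0.05 was met by 5 of the 14 factors, beside 16.9% of all tested genes. The factor called higher was Myb, a factor of immature blood cells that has been described as an activator of Bcl2. Myb stood at 345.9 and 394.3 CPM in the sensitive pair against 435.3 and 437.5 CPM in the resistant pair (log2 change 0.24 ± 0.06 SE, adjusted p = 0.0464 in edgeR). Its call was lost in DESeq2 (adjusted p = 0.0851) and without either resistant library (0.234 and 0.302). Leaving out sensitive replicate 1 gave Myb a log2 change of 0.15, and leaving out sensitive replicate 2 gave 0.33. Foxp1, Tcf3 and Trp53 had log2 changes of -0.14, -0.18 and -0.17 with all libraries. Their adjusted p-values were 0.258, 0.0948 and 0.125 in edgeR. Of 9 tested survival receptors and JAK kinases 0 were higher and 1 lower, beside 2.20% and 1.52% of all tested genes. An unadjusted edgeR p below 0.05 was met by 2 of the 9, beside 16.9% of all tested genes. The gene called lower was Il7r, the receptor of interleukin 7, a cytokine that sustains Bcl2 and Mcl1 in lymphocyte precursors. Il7r stood at 117.1 and 126.0 CPM in the sensitive pair against 90.1 and 96.9 CPM in the resistant pair (log2 change -0.38 ± 0.07 SE, adjusted p = 0.00271 in edgeR, or 0.0677 without resistant replicate 1). Without sensitive replicate 2 the log2 change of Il7r was -0.33. Tnfrsf13b had a log2 change of 0.24 with all libraries (adjusted p = 0.0988 in edgeR).

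Of 7 tested genes of MCL-1 turnover 0 were called by edgeR, by DESeq2 or by limma-voom, and 0 had an unadjusted p below 0.05 in edgeR. Their smallest p-values belonged to Gsk3a, Huwe1 and Usp9x, a kinase, a ubiquitin ligase and a deubiquitinase that act on the stability of MCL-1. Their log2 changes were -0.11, -0.09 and -0.09, and other genes cover 28.3% of the exonic bases of Gsk3a. Of 9 tested partners outside the family 0 were called by edgeR, by DESeq2 or by limma-voom, while 2 had an unadjusted edgeR p below 0.05, as did 16.9% of all tested genes. The pair were the calcium channels of the endoplasmic reticulum Itpr1 (0.21, adjusted p = 0.155) and Itpr2 (0.26, adjusted p = 0.160), which BCL-2 is known to bind. Without sensitive replicate 2 the log2 changes were 0.26 for Itpr1, 0.39 for Itpr2 and -0.14 for Vdac2.

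Of 10 tested regulators of mRNA 0 were called by edgeR, by DESeq2 or by limma-voom, while 4 had an unadjusted edgeR p below 0.05, beside 16.9% of all tested genes. Those with the smallest p were the translation regulator Tia1 (log2 change 0.23, adjusted p = 0.118), the nucleolin gene Ncl (-0.16, adjusted p = 0.124) and the mRNA decay factor Zfp36l1 (0.33, adjusted p = 0.125). The replicate block made Zfp36l1 a call (adjusted p = 0.0380 in edgeR), and other genes cover 55.9% of its exonic bases. Without sensitive replicate 2, where 10.1% of all tested genes were called, so were 4 of these 10. They were Tia1, Ncl and Zfp36l1 (adjusted p of 6.35e-05, 6.25e-06 and 0.00101 in edgeR) and Zfp36.

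This list held the host transcripts of miRNA clusters, whose seeds have matches in the 3′ UTRs of some members. Dleu2 hosts miR-15a and miR-16, described as repressors of Bcl2, and Mir17hg hosts miR-17 and miR-20a. The mature miRNAs (RefSeq, GRCm38.p6) are printed with the seed, bases 2 to 8, in capitals, and fall into 2 groups by seed.
miR-15a-5p: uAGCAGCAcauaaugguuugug
miR-16-5p: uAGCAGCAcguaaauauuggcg
miR-17-5p: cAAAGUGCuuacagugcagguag
miR-20a-5p: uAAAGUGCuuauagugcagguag
The longest annotated 3′ UTR of Bcl2 (GENCODE M21) has 1 match to each seed, shown with its surroundings and with the match in capitals, at chr1:106540794-106540817 and chr1:106540036-106540059 on the minus strand.
Bcl2, match to miR-15a and miR-16: taagaaaccctgTGCTGCTatcct
Bcl2, match to miR-17 and miR-20a: acagttaagggaGCACTTTcatgt
The miR-15a and miR-16 seed had 4 matches in Bcl2l2, of which those at positions 1696 and 1699 of the 3′ UTR overlapped, and none in Mcl1 or Bcl2l1. The miR-17 and miR-20a seed had 1 match each in Mcl1 and Bcl2l2 and none in Bcl2l1. Of the other miRNAs of Mir17hg searched, miR-92a had 1 match in Mcl1 and none in the other members, and miR-18a, miR-19a and miR-19b had none in any. A match to the first seed is found in 53.2%, and to the second in 35.8%, of 759 mouse 3′ UTRs cut to the 5086 bases of that of Bcl2, so such a match is common at this length. At the 3177 bases of the Bcl2l2 3′ UTR the shares were 41.6% and 26.0% of 2482 UTRs. At the 2353 bases of that of Mcl1 they were 20.8% for the miR-17 seed and 10.5% for the miR-92a seed, of 4298 UTRs. Dleu2 stood at 27.2 and 25.9 CPM in the sensitive pair against 27.6 and 33.8 CPM in the resistant pair (log2 change 0.21, adjusted p = 0.329 in edgeR). Mir17hg stood at 71.2 and 66.4 against 64.4 and 72.1 CPM (-0.01, or 0.000647 with library size as the only scaling). Mature miRNAs were not measured, and host RNA is not a measure of them.

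None of 6 genes, the 3 nearest tested on either side of Bcl2, was called in edgeR, DESeq2 or limma-voom. In edgeR 3.73% of all tested genes were called. Of the 6, 1, Gm8141, had an unadjusted edgeR p below 0.05, as did 16.9% of all tested genes. The start of Bcl2 lies 45.5 kb from that of Kdsr, an enzyme of sphingolipid synthesis, and 82.5 kb from that of Vps4b, an ATPase of endosomal sorting. Kdsr stood at 28.9 and 29.6 CPM in the sensitive pair against 29.6 and 34.5 CPM in the resistant pair (log2 change 0.13, adjusted p = 0.514 in edgeR). Vps4b stood at 107.1 and 108.2 against 100.4 and 107.0 CPM (-0.05, adjusted p = 0.729). On the other side the nearest tested gene was the phosphatase Phlpp1, at 542.5 kb (-0.14, adjusted p = 0.530), followed by Zcchc2 (-0.12) and Gm7160 (-0.06). The third on the first side, Gm8141, was 3119 kb away (-0.25, adjusted p = 0.216).

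**Figure D4:**
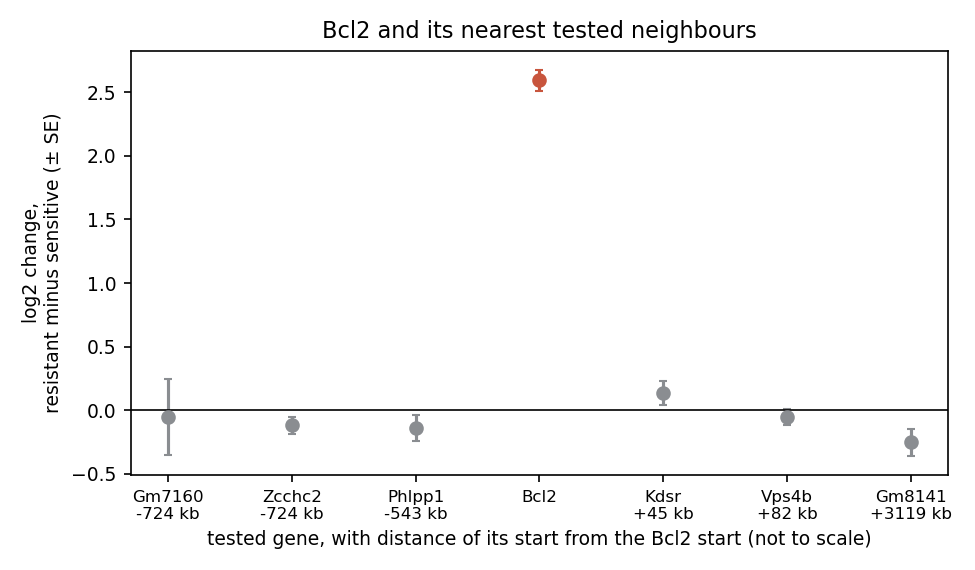
Log2 change (resistant minus sensitive, edgeR, bars ± SE) of Bcl2 and the 3 nearest tested genes on either side, in order along chromosome 1, with the distance between starts in kb. Bcl2 stands at 2.59 and the 6 neighbours lie between -0.25 and 0.13.

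Among tested genes whose log2 CPM averaged 0 or more, those whose pattern over the 4 libraries was closest to that of Bcl2 were Igkv3-4, Igkv3-10, Ms4a1, Igkv3-12 and Smim10l1. Likeness was the Euclidean distance between log2 CPM values centred on the mean of each gene, which was 0.228 for Igkv3-4 and 0.395 for Smim10l1. Igkv3-4, a variable gene of the kappa light chain, stood at 103.7 and 90.3 CPM in the sensitive pair against 518.9 and 524.7 CPM in the resistant pair. Ms4a1, which encodes the B-cell antigen CD20, stood at 1.31 and 1.36 against 8.15 and 7.07 CPM. Counts of single Igkv3 genes are uncertain, since these genes are similar in sequence. For Bcl2l2 the closest genes above the same minimum were Lhfpl4 (distance 0.190), 4933407K13Rik, Sox13, Bahcc1 and Cdk18 (0.286). Sox13, a transcription factor, stood at 16.8 and 18.3 CPM in the sensitive pair against 2.84 and 3.20 CPM in the resistant pair. With 4 libraries in 2 lines, likeness follows mainly from the size of the difference between lines.

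**Figure D5:**
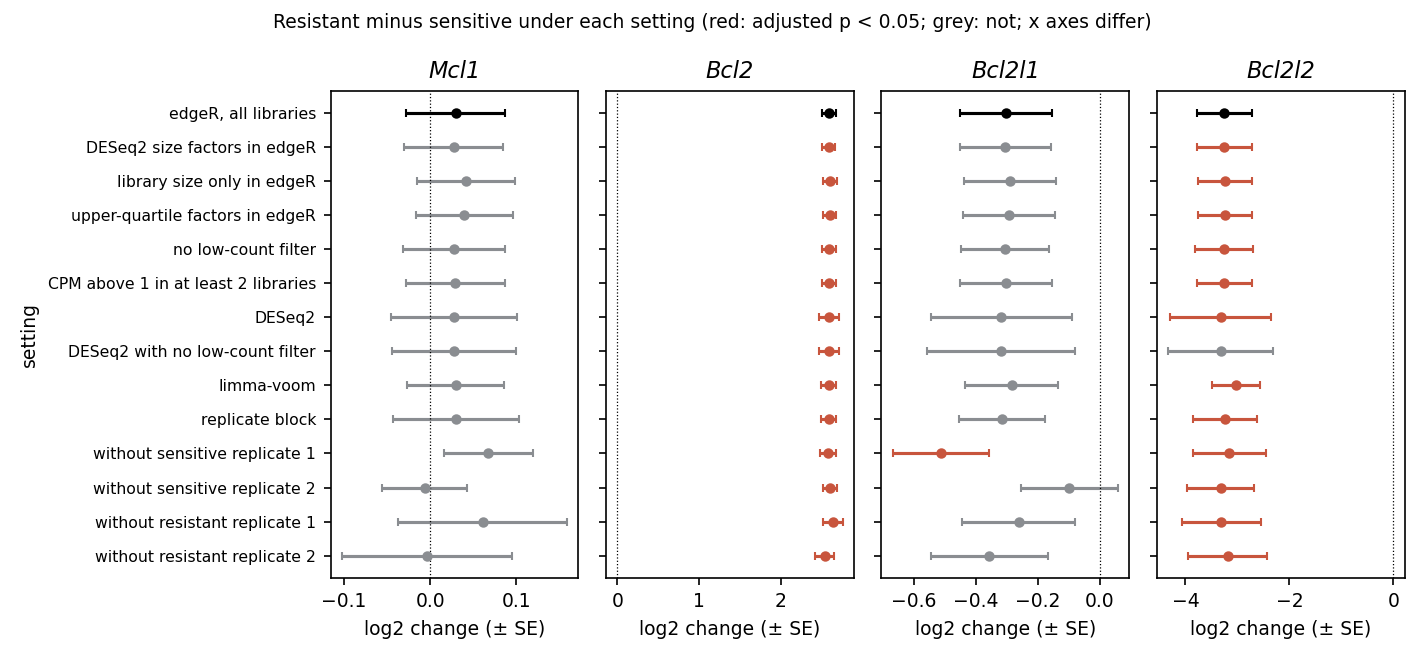
Log2 change of each member (resistant minus sensitive, bars ± SE, x axes differ) with all libraries in edgeR (black) and under each alternative (red where the adjusted p is below 0.05, grey otherwise). Bcl2 lies between 2.54 and 2.64 throughout, while Bcl2l1 runs from -0.51 to -0.10 as 1 or the other sensitive library is left out.

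Bcl2 was called higher under every one of the 13 alternatives run. Bcl2l2 was called lower under 12 of them, the exception being DESeq2 on the unfiltered table. Mcl1 was called under none, and Bcl2l1 only without sensitive replicate 1.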

How the data were processed

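Total RNA was isolated by spin column and made into TruSeq RNA libraries, per the labels' protocols. The authors deposited raw read counts per Ensembl gene, with no normalization. Per the submitters' processing notes the tools included HTSeq, TopHat and Bowtie2, beside cutadapt 1.7, FastQC and limma, and the builds were GRCm38 and mm10. The sources used here do not give the role of each tool, the strand setting or the release of the annotation. Every row of the table sums to at least 4 counts, and 0 columns were left unused. Symbols, lengths and positions came from GENCODE M21 (GRCm38), which matched 16393 of 16591 identifiers.

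Groups and replicate numbers came from the titles, and no number is said to mark a shared culture or day. Counts were tested with edgeR 4.0.16 in R 4.3.3 (glmQLFit, glmQLFTest, TMM, filterByExpr with minimum count 10 and minimum total 15), with group as the only term and Benjamini-Hochberg adjustment over all 11945 tested genes. Every adjusted p without another tool's name is from this test or from edgeR's under the alternative named. DESeq2 1.42.0 and limma 3.58.1 (voom) were alternatives. SE values were derived from the F statistic. The pipeline was tested on simulated data. Total counts of 10346007 to 13048103 make 1 count worth 0.0771 to 0.0972 CPM, and intervals cover counting error only.

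The members and gene lists were chosen with earlier results of these data known. Genes named are the 4 members, called list members (otherwise up to 3 with the smallest p), the 3 nearest tested genes on either side, and the 5 genes closest in pattern to each called member, among tested genes whose log2 CPM averaged 0 or more. Some genes that this rule would name are not reported here, among them the neighbours of Mcl1, Bcl2l1 and Bcl2l2 apart from Pabpn1, which was picked after its values were seen. Bcl2l11, Bbc3, Pmaip1, Bid, Bad, Bik, Bnip3l, Becn1, Creb1, Dleu2, Mir17hg, Foxp1, Tcf3, Trp53, Tnfrsf13b and Zfp36 were named beside this rule after their values were seen.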

Additional observations from a re-analysis of the deposited data

How the results depend on the processing

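Across the 13 alternatives the direction of Bcl2 (2.54 to 2.64) and Bcl2l2 held, and another scaling changed no member's call. Leaving out 1 library gave Mcl1 log2 changes of -0.0064 to 0.0676, Bcl2l1 of -0.51 to -0.10 and Bcl2l2 of -3.32 to -3.16. DESeq2 on the unfiltered table, an alternative chosen after seeing the data, gave Bcl2l2 -3.32 with no call. The count of called genes was 445, against 208 in DESeq2, 201 in DESeq2 without the filter and 269 to 1400 with 1 library left out, and of those changed at least 2-fold 117, against 79 and 75 in DESeq2 and 111 to 167. Without a sensitive library the fit rests on the spread of the resistant pair, with the lone sensitive library assumed to vary alike. Signs of uncalled genes turned in Bax (-0.0127 to 0.0360), Bak1 (-0.22 to 0.0045), Pecam1 (-0.17 to 0.0154), Gm7160 (-0.46 to 0.24), Bbc3 (-0.0769 to 0.31) and Mir17hg (-0.10 to 0.0652 without a library, 0.000647 by library size alone).

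The replicate number as a block gave 595 called genes and Bcl2 2.59, Mcl1 0.03, Bcl2l1 -0.31 and Bcl2l2 -3.24, and changed no call of a member. Deviations of same-numbered libraries correlated at -0.02 over tested genes. With 2 libraries per line and counting error in each deviation, this value cannot tell whether the numbers mark a shared culture or day.

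The Bcl2 share (2.44% sensitive, 13.02% resistant per kb) was 2.999% and 15.7% with the longest transcript, 8.29% and 35.4% with coding length, 6.20% and 28.4% by counts, and 2.60% and 13.7% with bases free of other genes, the last chosen after seeing the data. The Mcl1 share (93.3% and 84.3%) was 90.0% and 79.8%, 84.3% and 60.9%, 88.4% and 68.7%, and 93.1% and 83.6%. Leaving out a library gave 2.38% to 2.51% and 12.9% to 13.2% for Bcl2 and 92.7% to 94.0% and 84.1% to 84.5% for Mcl1. The family sum ratio (1.13) was 1.15 with the longest transcript, 1.41 with coding length, 1.32 by counts and 1.14 with free bases.

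Depth limits Bcl2l2, at 2 counts in each resistant library, where 1 count is worth 0.0842 to 0.0915 CPM.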
